A study of Mus musculus with 96 samples.

Results

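The 10 genes described here encode factors that shorten, bind, extend or decap the poly(A)-tailed messages an oocyte leaves to the embryo: Btg4, Cnot7, Cnot6l, Parn, Zfp36l2, Dcp1a, Dcp2, Pabpn1l, Pabpc1 and Cpeb1. They were taken by gene symbol, and all 10 were found among the 55401 gene rows of the deposited count table. Their levels were followed in 96 libraries, each from a single oocyte or embryo of mouse strain C57BL/6J, in 16 groups. There were 8 oocytes and 7 morulae of about 84 h. Of the embryos timed in hours after fertilization, 5 each were taken at 0, 2, 8, 10, 12, 14 and 20 h. The 4 h group held 2 embryos, 6 h held 3, 18 h held 9, 22 h held 10, 24 h held 6, and the 16 h and 36 h groups 8 each. All females had received PMSG and, 46 h later, hCG, cumulus cells were taken off with hyaluronidase, embryos were kept in KSOM medium, and no group was treated. Per the labels, the 0 h to 36 h embryos were processed as 1 cohort and the oocytes and morulae in other batches, so batch and stage cannot be told apart wherever oocytes or morulae enter a comparison. The labels do not say which embryos shared a mother, so p-values measure the spread between these libraries.

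A mammalian egg stops transcribing before it is ovulated, and its first divisions run on stored messages whose fate is set largely by their poly(A) tails. BTG4 bridges the CCR4-NOT deadenylase to messages bound by the cap-binding protein, and mouse embryos of mothers without it arrest soon after fertilization. Tail length is read by poly(A)-binding proteins and can be extended in the cytoplasm through CPEB1, whereas DCP1A and DCP2 take off the cap once the tail is short. The library kit primed cDNA on poly(A), so a change in the number of messages and a change in their tails cannot be told apart here. Values are CPM, a gene's counts scaled to the same library total, and thus shares of a library, so a lower level cannot be told apart from a larger total of the other messages.

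Gene counts per library ran from 10378 in morula replicate 4, with 564538 the next lowest, to 6795311, with a median of 2099222. A pair of libraries went against their labels. In 10 h replicate 5, the 10 oocyte marker genes summed to 39.2 CPM against a group median of 17179 CPM, the 19 cumulus and granulosa markers to 13460.5 CPM against 307 CPM, and the morula markers to 10231 CPM against 103.7 to 210.0 CPM in the other 4. The morula list was not high as a whole. By 10 h group mean, Krt18 was at 1947 CPM and Krt8 at 104.9 CPM, followed by Gata3 at 81.07 CPM. Nanog was at 0.82 CPM, Tdgf1 at 0.21 CPM, and Fgf4 and Cdx2 at 0. In morula replicate 4, the oocyte markers summed to 6360 CPM against a group median of 167 CPM. Both are kept in the group values, some of which are also given without them, and both are crosses in the plot of levels by stage. No 2 replicates of a group held identical values, in 275 pairs.

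The stretches before the start of Btg4 and Pabpn1l are shown because Btg4 was the most abundant of the 10 transcripts and Pabpn1l the one with the largest loss from 0 h to 36 h. They hold the 250 bases before the annotated start, 5′ to 3′ on the gene's strand, from RefSeq (GRCm38.p6), in which 6 of the 10 genes were matched. Capitals mark the E-box (CANNTG), the TATA box (TATAAA), the CCAAT box (CCAAT) and the GC box (GGGCGG), searched on both strands.
Btg4, chr9:51115751-51116000, plus strand: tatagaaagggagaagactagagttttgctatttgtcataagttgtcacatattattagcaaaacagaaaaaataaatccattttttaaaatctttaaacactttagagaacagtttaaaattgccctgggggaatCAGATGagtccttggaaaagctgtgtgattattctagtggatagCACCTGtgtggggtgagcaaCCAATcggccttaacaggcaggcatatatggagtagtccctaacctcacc
Pabpn1l, chr8:122622736-122622985, minus strand: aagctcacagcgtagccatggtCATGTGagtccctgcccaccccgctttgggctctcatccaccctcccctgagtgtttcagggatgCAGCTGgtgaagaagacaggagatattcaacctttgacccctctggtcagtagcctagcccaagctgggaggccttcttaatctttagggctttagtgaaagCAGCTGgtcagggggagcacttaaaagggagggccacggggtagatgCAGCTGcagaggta
The Btg4 window held an E-box at positions -114 and -70 and CCAAT at -50, counted backwards from the RefSeq start. GENCODE M21, used here for exon lengths, places Btg4 at chr9:51060901-51119875, so the 2 annotations differ in its start. By GENCODE M21 the window lies within the gene. The Pabpn1l window held an E-box at -228, -163, -61 and -14. An E-box was present in 66.2% of all 32851 windows of this kind, a CCAAT box in 33.8%, a TATA box in 12.4% and a GC box in 32.7%. No 2 of the marked matches overlap. The Btg4 window was 38% G or C and the Pabpn1l window 55.6%, those of Cpeb1 74% and Dcp1a 65.2%, and the 3 windows of Cnot6l 82.4%, 77.2% and 68.4%, beside a median of 52.4% over all windows. By GENCODE M21 the windows of Cpeb1 and Cnot6l also lie within their genes, and those of Dcp1a and Pabpn1l overlap their genes in part.

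At the 3′ end, the last polyadenylation signal of Dcp1a (chr14:30479535-30527063 in GENCODE M21, plus strand) overlapped a cytoplasmic polyadenylation element, the letters CPEB1 binds. It is shown as DNA with the element TTTTAAT and the signal AATAAA, which overlap, in capitals.
Dcp1a: atatgtttgcaaatatatttTTTTAATAAA
The scan looked for TTTTAT or TTTTAAT within 100 bases before the last AATAAA or ATTAAA of the final 40 bases. Dcp1a had 2 such elements, and the one nearest the signal is shown. Cnot7, Zfp36l2, Dcp2 and Pabpc1, the members without a RefSeq window, were not scanned. Of 14250 genes with such a signal, 18.5% had an element. The annotated ends of Cnot6l, Parn, Pabpn1l and Cpeb1 had a signal and none of these letters in the window, and that of Btg4 had no such signal in its final 40 bases.

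The transcripts fell into 3 kinds of course over the stages. Btg4, Cnot7, Cnot6l, Dcp1a, Dcp2, Pabpn1l and Cpeb1 were present from the oocyte and lower at 36 h than at 24 h. Pabpc1 and Zfp36l2 were low until 24 h and higher at 36 h. Parn, low throughout and also lower at 36 h than at 24 h, differed in having its lowest mean at 12 h and a called rise from there to 24 h. Of the 9 genes tested, 7 changed between oocytes and 0 h (4 higher, 3 lower), where 45.7% of all 9556 genes tested were called (23.3% higher, 22.5% lower). Between 0 h and 2 h, 1 of 9 was called, lower, against 8.25% of all genes (4.25% higher, 4.00% lower). From 0 h to 12 h, 6 of 9 changed (2 higher, 4 lower) against 39.0% of all genes (19.7% higher, 19.4% lower). From 12 h to 24 h, 1 of 9 was called, higher, against 21.6% (13.4% higher, 8.23% lower); without the titles in b, explained with Dcp1a, 3 were called against 35.8%. From 24 h to 36 h all 10 were called, 2 higher and 8 lower, against 52.3% (29.1% higher, 23.2% lower), or 9 against 45.4% without the titles in b. From 0 h to 36 h, 6 of 10 were called, 2 higher and 4 lower, against 64.7% (39.5% higher, 25.1% lower). Between 36 h and morulae, 8 of 9 were called, 1 higher and 7 lower, against 71.7% (28.2% higher, 43.5% lower), or 9 against 72.8% without morula replicate 4. The comparisons share groups, such as 0 h, 24 h and 36 h, and are given side by side only. In 1 fit of all 96 libraries, which share 1 estimate of the spread, Parn alone of the 7 kept its call between oocytes and 0 h, Cnot6l lost its call from 0 h to 2 h, and Btg4, Pabpn1l and Cpeb1 lost theirs from 0 h to 12 h. Calls are at an adjusted p under 0.05 from edgeR's quasi-likelihood test with Benjamini-Hochberg adjustment over all genes tested, as is every adjusted p of a gene below.

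**Figure D1:**
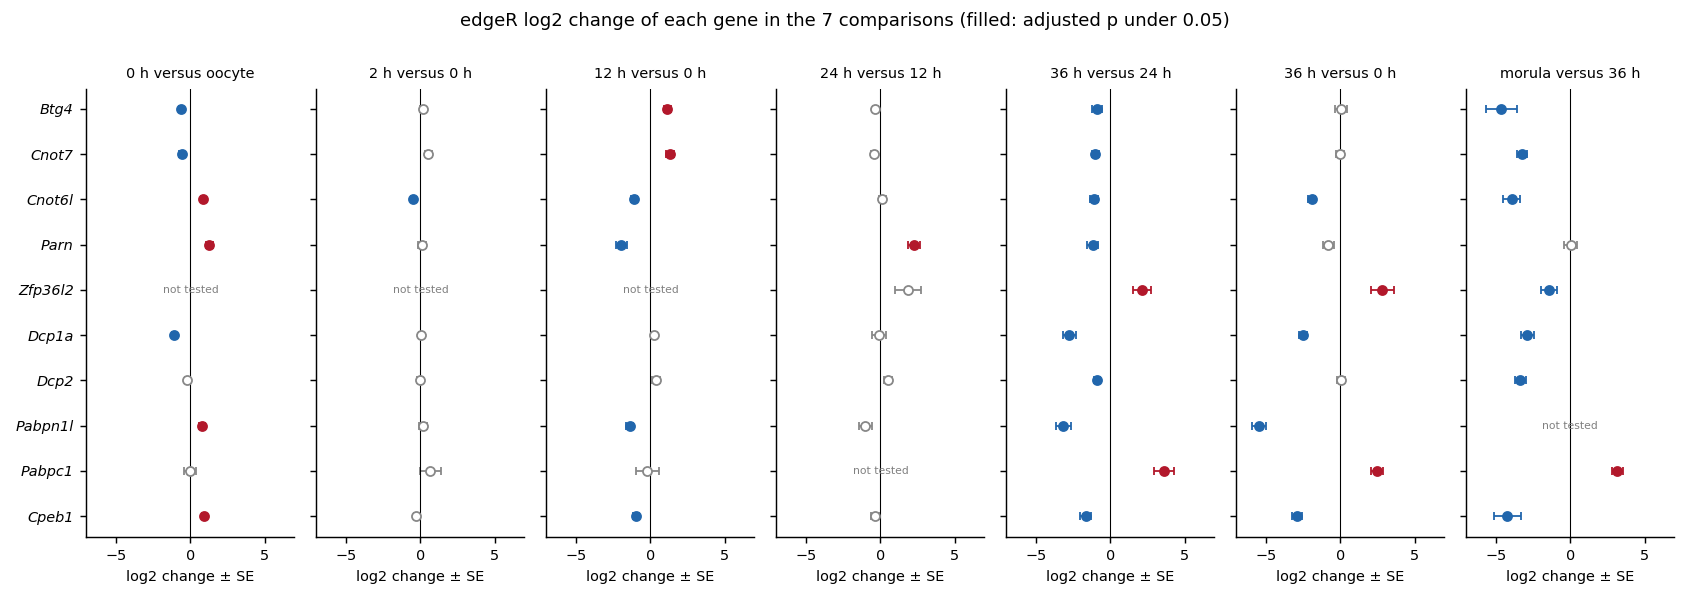
Fitted log2 change (x axis, with its standard error) of each of the 10 genes (y axis) in the 7 comparisons, one panel each; filled points passed an adjusted p of 0.05, red for higher and blue for lower, and open grey points did not. All 10 genes are filled in the panel of 36 h against 24 h, with Pabpc1 and Zfp36l2 to the right of 0, whereas 1 gene is filled in each of the panels of 2 h against 0 h and 24 h against 12 h.

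Btg4, the CCR4-NOT adaptor, was the most abundant of the 10 per kilobase of exon in all groups except the morulae without replicate 4, with group means of 2449 to 4449 CPM per kb from the oocyte to 36 h. In oocytes it read 8823 to 10367 CPM, median 9587 CPM. The 0 h embryos read 5412, 5271, 5809, 8145 and 6666 CPM. All 5 lay below every oocyte, and Btg4 fell by 0.63 ± 0.13 on the log2 scale (SE; adjusted p = 0.00027). By 12 h the embryos read 11295, 11302, 14251, 11005 and 9005 CPM, all above every 0 h embryo, a rise of 1.15 ± 0.22 (log2; adjusted p = 0.000617). Between 4 h and 24 h every library but 10 h replicate 5 (26.1 CPM) held 5918 to 14427 CPM. At 36 h the lowest, median and highest were 2001, 7615 and 10126 CPM, against 8791, 11117 and 11246 CPM at 24 h. The ranges overlapped, and the log2 change of -0.89 ± 0.35 was close to the threshold (adjusted p = 0.0434). The call was lost in 8 of 14 fits that each left out 1 library and in DESeq2 (adjusted p = 0.0595), while the log2 change stayed between -1.01 and -0.79 in those 14 fits. Morulae read 17.8 to 56.6 CPM apart from replicate 4 with 6649 CPM, which held 69 Btg4 counts. Against 36 h they were lower by a log2 change of -4.65 ± 1.06 (adjusted p = 0.000498), or -7.29 without replicate 4 (adjusted p = 1.58e-10).

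Cnot7, a catalytic subunit of CCR4-NOT, followed much the same course at lower levels. Oocytes held 1489 to 1913 CPM, median 1686 CPM, and the 0 h embryos 784, 813, 1180.3, 1646 and 1233 CPM, a fall of 0.59 ± 0.16 (log2; adjusted p = 0.0049). The 12 h embryos read 2758, 1837, 2596, 2084.5 and 2389.5 CPM, all above every 0 h embryo (log2 change 1.31 ± 0.24, adjusted p = 0.000365). From 16 h to 24 h the group means lay between 1214 CPM and 2013 CPM, and single libraries of 20 h spread from 615 to 2080.1 CPM. At 36 h the values ran from 692 to 1489 CPM, all below the lowest 24 h library of 1757 CPM (log2 change -1.03 ± 0.23, adjusted p = 0.0013). Morulae without replicate 4 held 83.8 to 147 CPM, and with all libraries the log2 change from 36 h was -3.23 ± 0.33 (adjusted p = 9.1e-09).

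Cnot6l, the other catalytic subunit among the 10, peaked at 0 h rather than in mid one-cell embryos. The oocytes read 337 to 513 CPM, median 428 CPM. The 0 h embryos read 889, 791, 757, 707 and 694 CPM, all above every oocyte, and the 2 h embryos 574, 560, 612, 507 and 426 CPM, all below every 0 h embryo. The rise from the oocyte was 0.81 ± 0.11 (log2; adjusted p = 1.78e-06). The fall from 0 h to 2 h was 0.49 ± 0.13 (log2; adjusted p = 0.0229), and it lost its call, with an adjusted p of 0.0508 to 0.0563, without 0 h replicate 1 or 3 or 2 h replicate 1, 4 or 5. By 12 h the values were 282, 173, 372, 284 and 358 CPM (log2 change from 0 h -1.09 ± 0.20, adjusted p = 0.000431). A second fall followed from 24 h (306 to 435 CPM, median 372 CPM) to 36 h (107.3 to 283 CPM, median 209.8 CPM), with no overlap between the groups and a log2 change of -1.09 ± 0.25 (adjusted p = 0.00193). The log2 change from 0 h to 36 h was -1.94 ± 0.26 (adjusted p = 3.88e-06). Morulae held 1.77 to 40.2 CPM apart from replicate 4 (289 CPM, from 3 counts), a log2 change of -3.96 ± 0.58 from 36 h (adjusted p = 1.62e-06), or -4.82 without replicate 2.

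Parn, a deadenylase that works outside CCR4-NOT, was low, with its lowest mean at 12 h. Oocytes held 3.54 to 18 CPM, median 10.6 CPM, and the 0 h embryos 38.3, 22, 26.9, 22.9 and 22.5 CPM, all above every oocyte (log2 change 1.27 ± 0.25, adjusted p = 0.000249). At 12 h it read 3.52, 4.04, 6.45, 4.00 and 9.86 CPM, below every 0 h embryo (log2 change -1.95 ± 0.36, adjusted p = 0.000393). From 16 h to 24 h the group means were 27.4 to 34.2 CPM, and the 24 h embryos (13 to 50.8 CPM, median 31.9 CPM) were all above those of 12 h, a rise of 2.24 ± 0.40 (log2; adjusted p = 0.00224). The 36 h embryos held 6.65 to 24.7 CPM, overlapping with 24 h, with a log2 change of -1.18 ± 0.37 (adjusted p = 0.0119). Of the 9 members tested between 36 h and the morula, Parn was the one that did not pass (15.3 ± 6.501 and 12.1 ± 7.20 CPM, SD). Without morula replicate 4 the morula mean was 14.1 ± 5.30 CPM (SD).

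Zfp36l2, which binds AU-rich elements and brings the deadenylase to messages, was low before 36 h. It was listed at 0 in 3 of 8 oocytes, 1 of 5 embryos at 0 h, both at 4 h and 4 of 5 at 12 h, and the 2 libraries of 4 h allow up to 0.78 CPM. It was too low to be tested in the comparisons up to 12 h. At 24 h it read 1.18 to 7.17 CPM, median 3.17 CPM, and at 36 h 1.91 to 36.4 CPM, median 17.6 CPM, with 6 of the 8 embryos of 36 h above all those of 24 h. The log2 change was 2.11 ± 0.61 (adjusted p = 0.00773). Morulae apart from replicate 4, listed at 0, held 4.42 to 6.66 CPM, a log2 change of -1.46 ± 0.54 from 36 h (adjusted p = 0.0182). The log2 change from 0 h to 36 h was 2.82 ± 0.79 (adjusted p = 0.00397), or 3.70 without 0 h replicate 5, the highest of its group with 8.11 CPM. The highest library before 36 h was 10 h replicate 5 with 38.1 CPM, the one high in cumulus markers and in a morula marker sum led by Krt18.

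**Figure D2:**
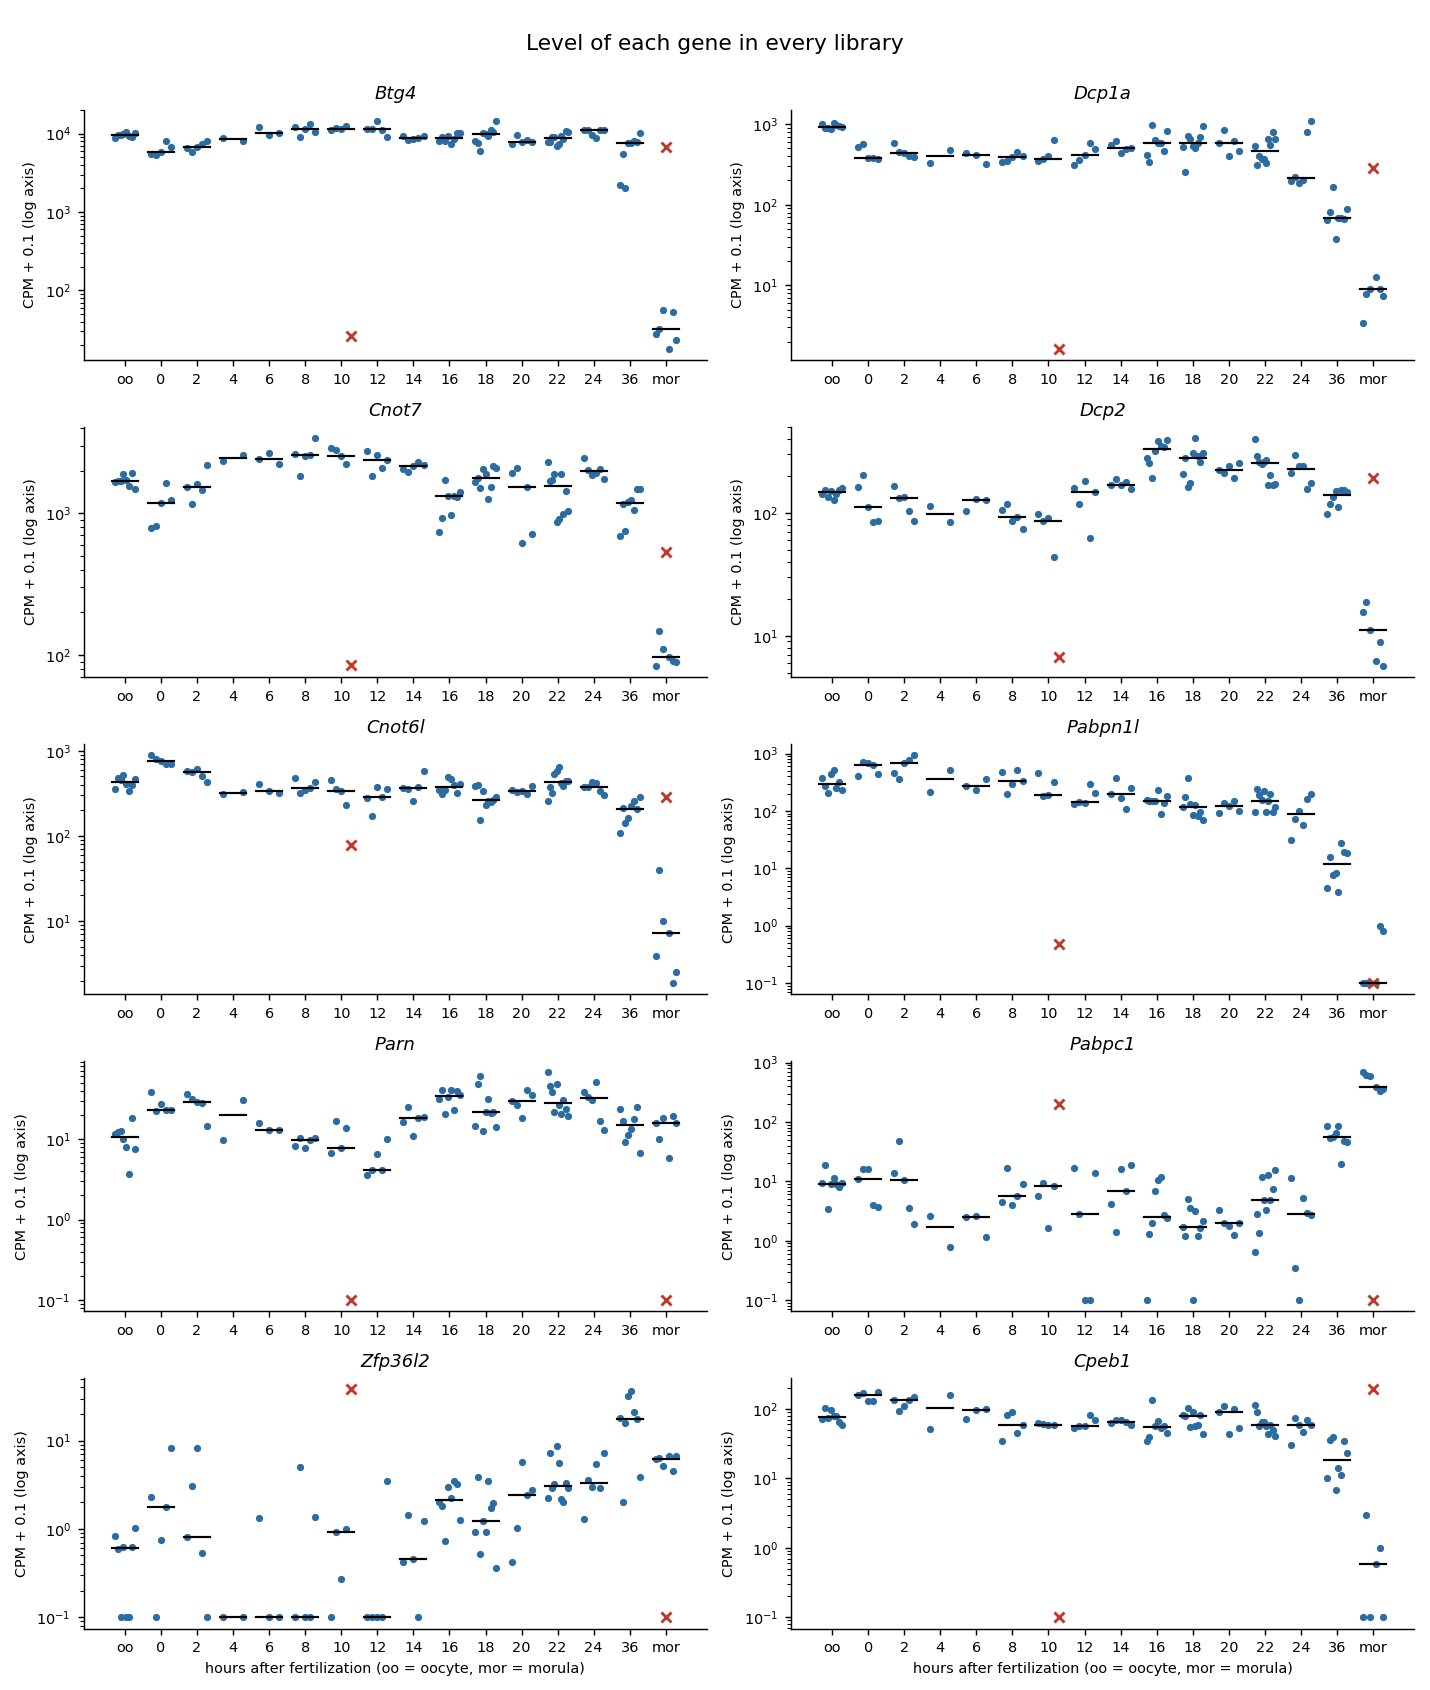
CPM plus 0.1 (log axis) of each of the 10 genes in every library (points) by stage on the x axis, with black bars at group medians; red crosses are 10 h replicate 5 and morula replicate 4. Pabpn1l and Dcp1a drop after 24 h, Btg4 and Dcp2 drop between 36 h and the morula, and Pabpc1 climbs from a 24 h median of 2.70 CPM to a morula median of 381 CPM.

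Dcp1a, an activator of decapping, began highest in the oocyte. The oocytes lay within 879 to 1019 CPM, median 927 CPM, and the 0 h embryos read 527, 566, 383, 376 and 374 CPM, all below every oocyte (log2 change -1.12 ± 0.11, adjusted p = 8.58e-09). No test was passed from 0 h to 2 h or 12 h, and group means from 0 h to 22 h stayed between 350.2 and 604 CPM. The lowest, at 10 h, was 437 CPM without replicate 5, and the 8 h mean of 386 CPM was then the lowest. At 24 h the 6 libraries split by their titles: 198, 223, 188 and 202 CPM in replicates 1 to 4, and 794 and 1092 CPM in replicates 5 and 6, whose titles end in b. The meaning of b is not given in the labels. In those 2 libraries the 2-cell markers summed to 78.4 and 79.8 CPM, against 278 to 3204 CPM in the other 4, and the oocyte markers to 10004 and 9079 CPM against 6490 to 7972 CPM. The part of this split in the result was not tested beyond leaving those libraries out. Dcp1a did not pass between 12 h and 24 h with all libraries, and fell by 1.35 on the log2 scale without the titles in b (adjusted p = 0.000377). At 36 h it held 37.9 to 168 CPM, median 67.6 CPM, below every 24 h library (log2 change -2.77 ± 0.45, adjusted p = 0.000109), or -1.57 without the titles in b (adjusted p = 0.000524). The highest of these, 36 h replicate 3, was also the one with cumulus markers at 1630 CPM, against 63.6 to 230.1 CPM in the other 7. In morulae apart from replicate 4 (289 CPM, from 3 counts) Dcp1a was at 3.32 to 12.6 CPM, a log2 change of -2.89 ± 0.45 from 36 h (adjusted p = 3.81e-06).

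Dcp2, the decapping enzyme itself, had its highest group mean at 16 h, which rests on the libraries with titles in b. Oocytes held 127.2 to 159 CPM, median 147 CPM, and the 0 h embryos 163, 205, 112.3, 83.7 and 85.6 CPM, a difference that did not pass the test with all libraries and was called, lower at 0 h, without 0 h replicate 2 (log2 change -0.40, adjusted p = 0.0306). The level did not pass from 0 h to 12 h or from 12 h to 24 h either, and its 16 h mean was 314 ± 68.1 CPM (SD, n = 8). The 5 libraries of 16 h with titles in b averaged 358 CPM and the other 3 averaged 242 CPM, whereas the 3 libraries of 22 h without b averaged 317 CPM and the 4 of 24 h without b 247 CPM. At 36 h the values of 97.4 to 153 CPM lay below every 24 h library (155 to 296 CPM), with a log2 change of -0.91 ± 0.21 (adjusted p = 0.00184). The means at 0 h and 36 h were 130.04 ± 52.9 and 133.1 ± 21.6 CPM (SD), a difference that did not pass the test, whereas Dcp1a was at 80.3 ± 38.2 CPM at 36 h against 445 ± 93.6 CPM at 0 h (log2 change -2.53 ± 0.26, adjusted p = 1.31e-07). In morulae apart from replicate 4 Dcp2 held 5.59 to 18.7 CPM (log2 change from 36 h -3.38 ± 0.37, adjusted p = 2.13e-08).

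Cpeb1, which binds the cytoplasmic polyadenylation element, rose around fertilization and then declined. Oocytes read 59.6 to 102.2 CPM, median 77.4 CPM, and the 0 h embryos 161, 167.5, 131.99, 129.5 and 177 CPM, all above every oocyte (log2 change 0.92 ± 0.13, adjusted p = 5.35e-06). At 12 h the values were 52.8, 57.4, 56.9, 83.2 and 68.7 CPM, all below every 0 h embryo (log2 change -0.98 ± 0.19, adjusted p = 0.000672). The 24 h embryos held 30.2 to 74.1 CPM, median 59.2 CPM, and the 36 h embryos 6.73 to 39.3 CPM, median 18.6 CPM (log2 change -1.65 ± 0.37, adjusted p = 0.00136), and the log2 change from 0 h to 36 h was -2.90 ± 0.34 (adjusted p = 7.01e-07). Of the morulae, 3 were listed at 0 and replicate 4 at 193 CPM from 2 counts. Their log2 change from 36 h was -4.23 ± 0.90 (adjusted p = 0.000155), or -4.61 without replicate 4 and -4.97 without replicate 2. The 7 morulae held 11 Cpeb1 counts in all, with 1 library above 3 counts, so the size of the fall is uncertain.

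Pabpn1l and Pabpc1 exchanged places between 24 h and the morula. Pabpn1l is a poly(A)-binding protein of the oocyte and early embryo, known to act with BTG4 on maternal messages, and its gene lies at chr8:122619471-122622739 (GRCm38, minus strand). Pabpc1 encodes the poly(A)-binding protein found in the cytoplasm of most cells and lies at chr15:36595661-36609668 (minus strand). Oocytes held 203 to 516 CPM of Pabpn1l, median 296 CPM. The 0 h embryos read 398, 725, 680.0, 627 and 443 CPM, and the 2 h embryos 460.2, 354, 689, 762 and 938 CPM. The rise from oocytes to 0 h, with overlapping ranges, was 0.79 ± 0.22 (log2; adjusted p = 0.00682), and the step to 2 h did not pass.

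By 12 h Pabpn1l had fallen to 130, 145, 134.8, 294 and 203 CPM, below every 0 h embryo (log2 change -1.39 ± 0.25, adjusted p = 0.00029). From 14 h to 22 h the group means were 120.8 to 221 CPM. At 24 h the libraries read 31.2, 73.2, 100.5, 57.7, 159 and 194 CPM, the last 2 being those with titles in b. The step from 12 h did not pass with all libraries (adjusted p = 0.0975) but passed without the titles in b (log2 change -1.71, adjusted p = 0.00188) and without either of the 2 alone. At 36 h it held 4.46, 15.8, 7.40, 8.08, 3.804, 27.1, 19.1 and 18.3 CPM, below every library of 24 h. The log2 change from 24 h was -3.16 ± 0.52 (adjusted p = 0.000132), or -2.48 without the titles in b, and that from 0 h -5.47 ± 0.45 (adjusted p = 7.88e-09). In the morulae 5 of 7 libraries were at 0 and 3 counts were found in all, so that pooled 36 h embryos held 54.7 times the pooled morula level (95% interval 18.4 to 268, counting error only). The gene was too low for the count model with all morulae, and without replicate 4 its log2 change was -5.37 ± 0.96 (adjusted p = 2.02e-05).

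Pabpc1 was low through the same hours. Oocytes held 3.29 to 18.9 CPM, median 9.01 CPM, and the 0 h embryos 10.7, 16.2, 15.8, 3.91 and 3.61 CPM. No step up to 12 h passed the test, and at 24 h the libraries read 11.5, 0.25, 0, 5.10, 2.80 and 2.61 CPM. At 36 h the embryos read 86.4, 53.6, 55.8, 65.8, 84.8, 19.1, 46.9 and 45.7 CPM, all above every 24 h embryo, a rise of 3.63 ± 0.67 (log2; adjusted p = 0.00032), or 4.37 without 24 h replicate 1, the highest of its group. The rise from 0 h to 36 h was 2.45 ± 0.41 (log2; adjusted p = 3.76e-05). Morulae read 688, 612, 592, 381, 333 and 356 CPM apart from replicate 4 at 0, all 6 above every 36 h embryo. That step was a rise of 3.17 ± 0.40 (log2; adjusted p = 1.65e-07), or 3.44 without replicate 4.

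Pabpc1 is also a transcript of somatic cells, and some of its high early values stood in libraries with high cumulus markers. The highest Pabpc1 level before 36 h, 203 CPM, was in 10 h replicate 5, whose morula marker sum, led by Krt18, was high as well. In 2 h replicate 2, Pabpc1 read 46.8 CPM beside cumulus markers of 1293 CPM, the highest of that group on both counts, and in oocyte replicate 2 it read 18.9 CPM beside 1251 CPM, again the highest of its group. In 0 h replicate 5, with markers at 1095 CPM, it read 3.61 CPM, the lowest of its group. At 36 h the summed cumulus markers ran from 63.6 to 1630 CPM, median 78.1 CPM, against 78.6 to 325 CPM, median 129.01 CPM, at 24 h. Single markers went different ways, so the sums do not give the amount of cumulus material. By group mean, Bmpr1b (100.29 to 30.29 CPM) and Cyp19a1 (50.68 to 4.51 CPM) were lower at 36 h than at 24 h. Hsd3b1 (4.25 to 125.87 CPM) and Cyp11a1 (3.13 to 87.56 CPM) were higher, with replicate 3 included. With replicate 3, the highest on the markers, left out, the rise of Pabpc1 from 24 h to 36 h kept its call, as it did with each other library left out. The part of these markers in the Pabpc1 levels was not tested beyond that.

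Within each library the log2 ratio of Pabpc1 to Pabpn1l counts, with 0.5 added to each, compares the 2 genes at the same depth. Where a count is 0, the value is set by the added 0.5 and the depth and is not a measured ratio. Pabpc1 was at 0 in 5 libraries before 36 h (2 of 12 h and 1 each of 16 h, 18 h and 24 h), and Pabpn1l in 5 of the 7 morulae. The log2 ratio averaged -5.08 ± 0.66 in oocytes (SD, n = 8), -6.00 ± 0.93 at 0 h (n = 5), -6.15 ± 2.94 at 12 h (n = 5) and -5.68 ± 2.93 at 24 h (n = 6). It was below 0 in every library from the oocyte to 24 h except 10 h replicate 5 (8.73). At 36 h it was 2.29 ± 1.65, with Pabpc1 ahead in 7 of 8 embryos, and in morulae 8.88 ± 4.18, with Pabpc1 ahead in the 6 libraries other than replicate 4, which had neither. The morula mean and its differences from other groups thus depend on the 0.5 and are not exact. The difference of 7.97 between 36 h and 24 h had an exact two-sided permutation p of 0.000666, or 0.00466 adjusted over the 7 comparisons, and the ranges did not overlap. Between 36 h and 0 h the difference was 8.30 (exact permutation, adjusted p = 0.00544), without overlap, and between morulae and 36 h 6.59 (adjusted p = 0.00653, exact permutation), or 8.07 without replicate 4. The other 4 comparisons did not pass, with adjusted exact permutation p-values of 0.136 to 0.96. Pabpc1 has the longer exons (6540 against 1193 bases). Per kilobase the log2 ratio was -0.16 ± 1.65 at 36 h, with Pabpc1 ahead in 4 of 8 embryos, and 6.43 ± 4.18 in morulae, ahead in 6 of 7.

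**Figure D3:**
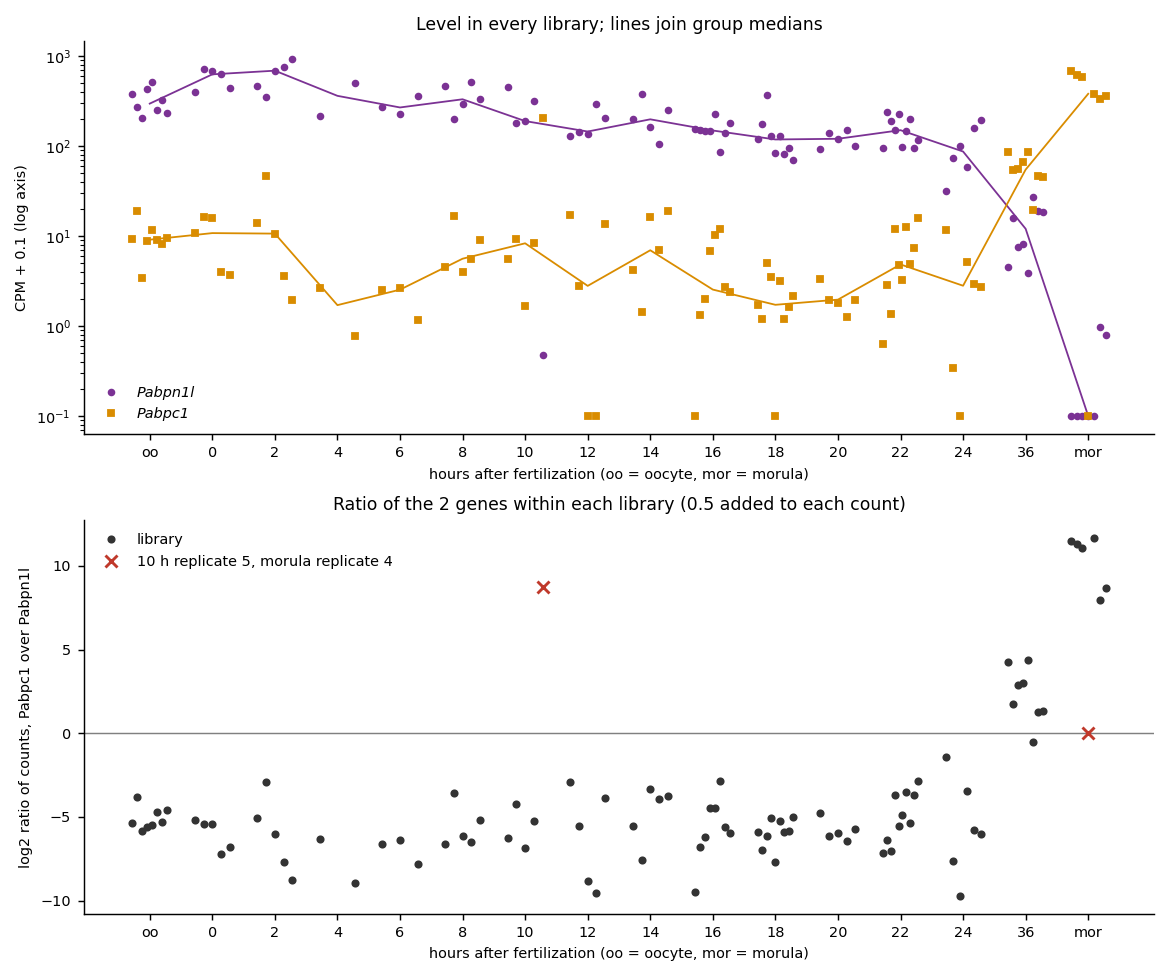
Top: CPM plus 0.1 (log axis) of Pabpn1l (circles) and Pabpc1 (squares) in every library by stage, with lines through group medians. Bottom: log2 ratio of Pabpc1 to Pabpn1l counts in each library; the ratio is below 0 up to 24 h except in 10 h replicate 5, above 0 in 7 of 8 embryos of 36 h, and 7.97 to 11.65 in the morulae other than replicate 4.

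Ordered by mean level, most neighbouring groups overlapped in their ranges. Of 15 steps between neighbours, Pabpn1l was separated at 2, those from 24 h to 36 h and from 36 h to the morula. Cnot6l was separated at 1, between 0 h and 2 h, and Cnot7 at 1, between 0 h and the morula. The other 7 members overlapped at every step, in part through 10 h replicate 5 and morula replicate 4. The genes whose means over the 16 groups followed Pabpn1l most closely, by Pearson's r of log2(mean CPM + 1) among 10317 genes, were Slc7a11 (0.993), Zar1 (0.992), Ext1 (0.99), Jag1 (0.989) and Pde3a (0.988). Zar1 encodes an oocyte RNA-binding protein. Those closest to Pabpc1 were the ribosomal protein genes Rps19 (0.983) and Rps3 (0.982), their relatives Rpsa-ps2 (0.991) and Rps19-ps6 (0.989), which are pseudogenes, and a gene row named Atp5o (0.985). Another row of that name was less alike, at rank 327 (0.914) without morula replicate 4. Without 10 h replicate 5, which lifted the 10 h mean of Pabpc1, 4 of these 5 were again the closest, at 0.979 to 0.983, and Rps19 came at rank 10. Closest to Btg4 were Ccdc85a (0.986), Tcl1 (0.985), Coq10b (0.984), Wdr33 (0.983) and Rchy1 (0.983). That set rests on morula replicate 4: without it, Tcl1 (0.997) was the 1 of the 5 still among the closest, and Ccdc85a was at 0.959. The 5 closest to Pabpn1l were the same without either library. Among the members themselves, Btg4 and Cnot7 had r = 0.96 and Cnot6l and Pabpn1l 0.92 over the 16 groups, whereas Pabpn1l and Pabpc1 had -0.71. The r values between members include 10 h replicate 5 and morula replicate 4 and were not computed without them. The morula mean of Btg4, for one, was 979.89 CPM with replicate 4 and 35.1 CPM without it. These are descriptions over group means, which share libraries and depth.

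Read assignment limits some members. The kit does not mark strand, and Btg4 overlaps Layn and 4833427G06Rik, Cnot7 overlaps Zdhhc2 and Vps37a, Zfp36l2 overlaps the antisense gene AC132455.1, Dcp1a overlaps Cacna1d, Pabpn1l overlaps Gm20388 and Cpeb1 overlaps Rpl7a-ps9 on the opposite strand, so reads from each pair cannot be told apart where they overlap. Counts were fractional in 70.8% of libraries for Cnot7, 42.7% for Cnot6l, 8.3% for Pabpn1l and 3.1% for Pabpc1. How the authors' counting split shared reads is not given in the sources used here, so levels with many fractional counts are uncertain.

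The wider pathway was read from 8 lists, which hold the members' relatives and partners in each step of tail and cap removal. Between oocytes and 0 h, 29 of 91 rose and 21 fell, which is 54.9% called against 45.7% of all genes. The list of poly(A)-binding proteins and partners had 6 of 8 higher and 1 lower, where 23.3% of all genes were higher and 22.5% lower. Its median log2 change was 1.21 against -0.02 over all genes. Paip2, which inhibits poly(A)-binding proteins, went up from 17.4 to 278.5 CPM (a log2 change of 3.99 ± 0.26, adjusted p = 3.45e-10), and Pabpc1l, the embryonic cytoplasmic form, from 5.35 to 26.15 CPM (log2 change 2.28). In the decapping list, 7 of 17 rose and 5 fell, or 70.6% called against 45.7% of all genes. Lsm4 and Lsm6, parts of the ring that binds shortened tails, rose by 5.03 and 3.19 (log2), and Dcps, the scavenger decapping enzyme, fell by 2.11. In CCR4-NOT, Cnot2 fell by 1.05 (log2) and Cnot9 rose by 0.65.

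From 0 h to 12 h, 16 of 87 rose and 24 fell (46.0% called against 39.0%). All 8 tested genes of the poly(A)-binding list passed, 7 of them lower, where 19.4% of all genes were lower. Their median was -1.52 against -0.02 over all genes. Paip2 was back at 17.7 CPM (log2 change -3.71), Pabpc1l at 4.57 CPM (-2.48), Lsm4 at 2.68 CPM (-4.75) and Papola, the canonical poly(A) polymerase, at 63.9 CPM from 247 CPM (-1.67). Cnot2 rose from 96.5 to 196.5 CPM (log2 change 1.30). Both comparisons use the same 5 embryos of 0 h. From 0 h to 2 h, 6 of 91 rose and 6 fell (13.2% called against 8.25%), among them Cnot2 (log2 change 0.74), Dcps (1.66) and Ddx6 (1.27) upward and Lsm4 (-1.13) and Paip2b (-0.86) downward. From 12 h to 24 h, 10 of 97 rose and 10 fell (20.6% against 21.6%), and 9 rose and 22 fell without the titles in b (32.0% against 35.8%). Paip2 rose by 2.83 (log2) and Btg1 fell by 3.23.

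From 24 h to 36 h, 27 of the listed genes rose and 24 fell, which is 49.04% of those tested against 52.3% of all genes, and 18 were too low to be tested. The deadenylase recruiters had 7 of 19 higher and 1 lower, or 42.1% called, also below the share of all genes. The 36.8% higher stood beside 29.1% of all genes. Without the titles in b, 5 of 20 rose and 0 fell (edgeR), 25.0% called against 45.4% of all genes. Those that rose with all libraries include Tob1, a partner of the CCR4-NOT deadenylase, at 32.5 CPM from 2.32 CPM (log2 change 3.51 ± 0.64, adjusted p = 0.000273), and Btg1 (2.80). CCR4-NOT subunits had 1 of 9 higher, Cnot10 (log2 change 3.16), and 4 lower, among them Cnot4 (-1.99) and Cnot11 (-2.48). That was 55.6% called against 52.3% of all genes. Pabpn1, the nuclear poly(A)-binding protein and relative of Pabpn1l, went from 28.9 to 319 CPM (a log2 change of 3.19 ± 0.35, adjusted p = 3.52e-06), while Pabpc1l fell from 29.5 to 7.91 CPM (-2.18). Over the span from 0 h to 36 h, 27 rose and 36 fell (62.4% called against 64.7%), at a median of -0.24 against 0.38 over all genes. The poly(A)-binding list had 1 of 8 higher, Pabpn1, and 7 lower, where 39.5% of all genes were higher and 25.1% lower.

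Between 36 h and morulae, 30 rose and 39 fell (67.6% called against 71.7%), or 32 and 40 without replicate 4. The RNA exosome, which degrades messages from the 3′ end, had 9 of 15 higher and 1 lower, with the same 9 and 1 counts without replicate 4. The share higher was 60% against 28.2% of all genes, while the share called, 66.7%, was below the 71.7% of all genes. The median log2 change of the list was 1.56 against -0.55 over all genes. Exosc7 went from 40.3 to 462 CPM (a log2 change of 3.73 ± 0.35, adjusted p = 2.38e-09). Lsm4 and Lsm5 rose by 4.54 and 4.71 (log2), and Papola by 3.04. Tob1, Tob2 and Angel2, the last from the list of other deadenylases, fell, with log2 changes of -4.31, -4.82 and -5.90.

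**Figure D4:**
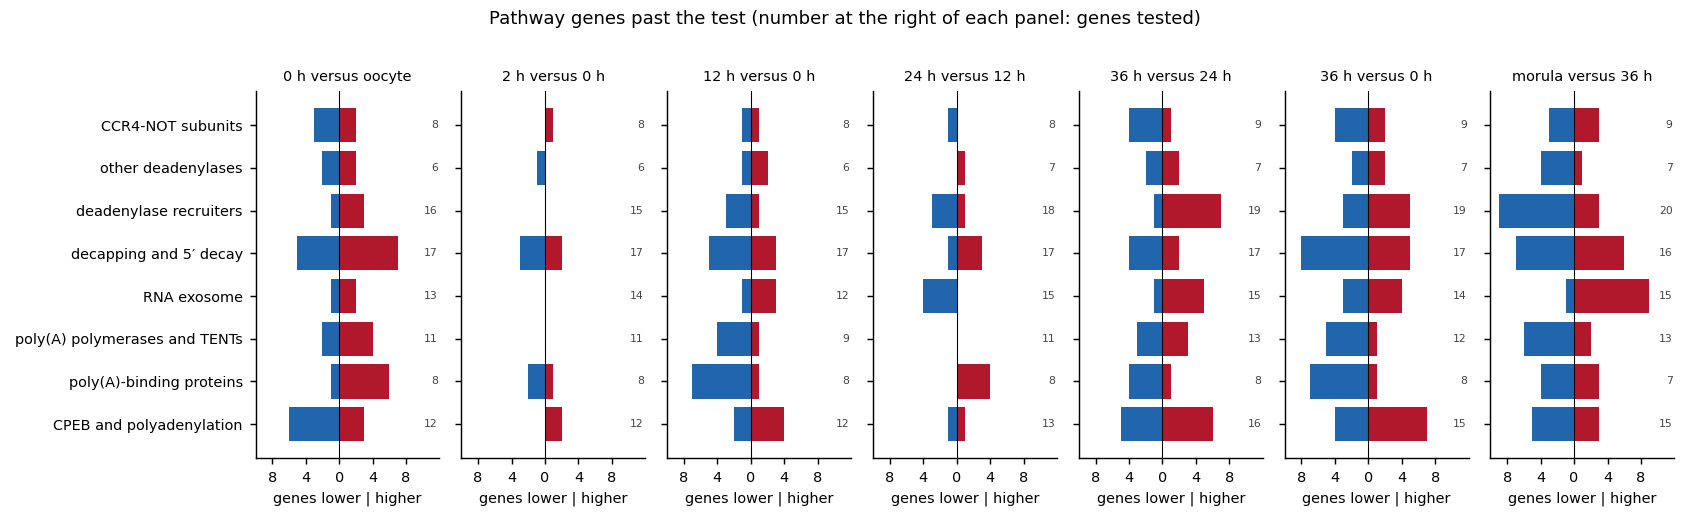
Number of genes of each of the 8 pathway lists (y axis) that passed an adjusted p of 0.05 in each of the 7 comparisons (panels), higher to the right in red and lower to the left in blue; grey figures give the genes tested. In the list of poly(A)-binding proteins, 6 of 8 rose between oocytes and 0 h (23.3% of all genes) and 7 of 8 fell from 0 h to 12 h (19.4% of all genes). In the exosome list 9 of 15 rose between 36 h and the morula (28.2% of all genes).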

How the data were processed

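Single oocytes and embryos were measured by poly(A)-primed RNA sequencing (SMART-Seq v4) in 96 libraries. Reads were trimmed with Trimmomatic 0.39, aligned with STAR and counted with featureCounts against mm10, per the submitters' processing notes. The deposited table holds expected counts per gene, by its values: 28.4% of nonzero gene values were not whole, so they were rounded for the count models. The 873 rows of repeats were left out of library sizes. CPM used library size alone over the 55401 gene rows, and per-kilobase values the summed exon length of GENCODE M21. Total gene counts of 10378 to 6795311 per library set the precision of low genes, and 95% intervals and the 3-count floor cover counting error only.

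Each comparison was fitted on its own groups with edgeR 4.0.16 (R 4.3.3): filterByExpr, TMM, robust quasi-likelihood test, Benjamini-Hochberg adjustment over all genes tested. The Pabpc1 to Pabpn1l ratio was tested with exact two-sided permutation tests (scipy 1.17.1). The scripts were tested on simulated data. Alternatives were DESeq2 1.42.0, library size alone, no filter on low counts, 1 fit of all libraries, the title number as a replicate block, each replicate left out, libraries with titles ending in b left out, and a prior count of 2 for the ratio. Leaving out the pair of libraries that went against their labels, in the group levels and in the search for genes most like a member, and leaving out morula replicate 4 or the titles in b, in the pathway lists, were chosen after seeing the data.

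Besides the 10 members, the text names at most 2 genes per list and direction in each comparison, those with the largest called fold change and at least 5 counts per library in 1 group, and the 5 genes most like Pabpn1l, Pabpc1 and Btg4 among genes reaching 20 CPM in some group. The members and lists were chosen with earlier results of these data known.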

Additional observations from a re-analysis of the deposited data

Results flagged for a closer look

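In groups of 4 to 10 libraries, a library was singled out where its gap to the nearest other one, over the range of the group, exceeded Dixon's 95% critical value. This held in 20 of 140 groups of member values, where chance gives about 1 in 20. Of these, 5 stood in 10 h replicate 5 and 7 in morula replicate 4, the libraries that went against their labels.

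In 10 h replicate 5, Btg4 read 26.1 CPM against 10961 to 12645 CPM in the other 4 and Cnot7 85.4 CPM against 2220 to 2894.5 CPM. Cpeb1 was listed at 0 against 58.2 to 62.9 CPM. Zfp36l2 read 38.1 CPM against 0 to 0.897 CPM, and Pabpc1 203 CPM against 1.56 to 9.16 CPM. Without this library the 10 h means were 11677 CPM for Btg4 and 6.11 CPM for Pabpc1.

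In morula replicate 4, with 10378 gene counts, Btg4 read 6649 CPM against 17.8 to 56.6 CPM in the other 6. Cnot7 read 530.0 CPM, Cnot6l and Dcp1a 289 CPM each, and Dcp2 and Cpeb1 193 CPM each, all above the other 6, whereas Zfp36l2 was at 0. Without it the morula means were 35.1 CPM for Btg4 and 494 CPM for Pabpc1.

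The other 8 stood in 8 libraries. Zfp36l2 stood out in 0 h replicate 5 (8.11 CPM), 8 h replicate 2 (4.92 CPM) and 12 h replicate 5 (3.38 CPM), whose summed cumulus markers of 1095, 2441 and 1573 CPM were the highest of each group. The part of those markers in the result was not tested. For Dcp1a these were 2 h replicate 1 with 589.7 CPM and 36 h replicate 3 with 168 CPM. Pabpn1l was at 373 CPM for 18 h replicate 3, Pabpc1 at 46.8 CPM for 2 h replicate 2, and Cpeb1 at 133.5 CPM for 16 h replicate 3.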

How the results depend on the processing

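With 1 fit of all 96 libraries the members called fell from 7 to 1 between oocytes and 0 h, from 1 to 0 between 0 h and 2 h and from 6 to 3 between 0 h and 12 h. Of all genes tested, those called went from 4371 of 9556 to 1601 of 18924, from 726 of 8804 to 0 of 18924 and from 3206 of 8211 to 1672 of 18924. Without a filter on low counts 0 members were called from 0 h to 2 h, beside 666 of all 25165 genes tested. With 1 library left out 0 to 1 members were called. Without the titles in b, 3 members were called from 12 h to 24 h and 4068 of 11370 genes in place of 2397 of 11083. With 1 library left out 1 to 2 members were called.

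Dcp1a from 12 h to 24 h, not called, changed sign from a log2 change of -0.11 to 0.059 with library size alone, and ran from -0.59 to 0.054 with 1 library left out. The uncalled ratio differences also changed sign with 1 library left out: -0.88 to 0.58 from 0 h to 2 h, -0.95 to 0.70 from 0 h to 12 h and -0.38 to 1.27 from 12 h to 24 h. With a prior count of 2 the difference from 0 h to 12 h was 0.57. The cause was not tested. Scaling by library size alone shifted the median over all genes (log2) from -0.02 to -0.29 (0 h to 12 h), from 0.05 to 0.25 (12 h to 24 h) and from 0.05 to 0.29 (24 h to 36 h), and higher and lower calls from 1616 and 1590 to 1005 and 2240, from 1485 and 912 to 1832 and 600, and from 3671 and 2936 to 4172 and 2232.

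Titles give 0 h, 2 h and 12 h the same numbers. With the title number as a replicate block, 2 members were called from 0 h to 2 h, adding Cnot7 (edgeR, adjusted p = 0.0449), beside 793 of all 8804 genes tested. Same-numbered libraries correlated at -0.179 to 0.046 (0 h and 2 h, 0 of 5 best with their own number) and -0.107 to 0.245 (0 h and 12 h, 1 of 5). With 5 pairs in each comparison, these values cannot decide whether equal numbers mark a pairing.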
